A study of Gallus gallus with 6 samples.

Results

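Genes of bone morphogenetic protein (BMP), transforming growth factor beta (TGF-beta) and SMAD signalling were followed in male and female brains of chick embryos at stage 29. They were chosen by name: every probe set (the group of short probes that measures 1 transcript) whose single gene symbol in the platform annotation starts with BMP, GDF, INHB, TGFB, SMAD or ACVR, is ID or FSTL with a single digit, or is FST, NOG, CHRD or NBL1. This gave 51 genes with 83 probe sets, out of 13008 genes that the array names singly, and each gene was read from its brightest probe set. Of the 51 genes 48 lay on autosomes and 3 on the Z chromosome, by the RefSeq annotation of the assembly GRCg7b. The name rule also takes in genes that share a name and not the pathway's core steps, such as TGFBI and FSTL5, and these are described last.

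The embryos (Gallus gallus, no strain, treatment or genotype stated) had been incubated for 6 to 6.5 days and were sexed genetically. There were 3 female and 3 male pools, each of the brains of 5 to 8 embryos and each put on 1 Affymetrix array. The values are log2 expression values, so that a difference of 1 is a doubling of signal. A signal of a probe set depends on its probes, so levels were compared between pools and not between genes. The female sex chromosomes are Z and W and males have a pair of Z chromosomes, so that a Z-linked gene is present in an extra copy in males.

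In this pathway, secreted ligands (BMPs, GDFs, activins and TGF-betas) bring together type I and type II receptor kinases on the cell surface. The receptors phosphorylate receptor SMADs (SMAD1, SMAD5 and SMAD9 for BMPs, SMAD2 and SMAD3 for TGF-betas and activins), which enter the nucleus and switch genes such as the ID genes. Noggin, chordin and follistatin bind ligands outside the cell, and SMAD6 and SMAD7 dampen the signal inside it. In the embryonic neural tube, BMPs from the dorsal midline help to set dorsal cell fates and the formation of the choroid plexus.

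The pools were labelled as brain, and a W-linked gene matched the sex of the labels. HINTW, a W-linked gene, lay between 13.09 and 13.31 in the female pools and between 4.63 and 5.96 in the male pools. Of the neuron markers 9 of 10, and of the neural progenitor markers 9 of 9, had a signal at or above 4.91, the median of all chicken probe sets. Of 13 mesenchyme and meninges markers 5 reached that level, and 6 lay under 4.21, the 95th percentile of probe sets for viruses and other organisms, which served as a picture of background. Of the progenitor markers NES was lower in males by the fit (-0.55, limma adjusted p = 0.0380), and no other marker passed. Endothelium markers had mean levels of 5.71 to 5.83 in female and 5.72 to 5.90 in male pools, roof plate and choroid plexus markers 6.61 to 6.71 and 6.52 to 6.73, and muscle markers 4.25 to 4.33 and 4.36 to 4.43. In female pool 3 the mean level of 16 HOX genes of hindbrain and spinal cord was 4.07, against 4.81 to 5.01 in the other 5 pools. The part of this pool's difference in the results was not tested, and values without it are given for FST, NOG, ID1, TGFBI and FSTL5.

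None of the 51 genes passed an adjusted p of 0.05 between male and female pools (limma with Benjamini-Hochberg adjustment over 37693 chicken probe sets, two-sided, n = 3 pools per sex). Over all 13008 genes read the same way 0.923% passed, and over the autosomal genes 0.0492%. In pooled tissue fewer cells of a type and less RNA per cell cannot be told apart, which holds for each value below. The 3 Z-linked members, SMAD2, FST and SMAD7, had higher means in males, by 0.19 to 0.63, though none passed. Their unadjusted p was 0.0112, 0.0216 and 0.0599 (limma). In each of them the lowest male pool lay above the highest female pool, as in 43.1% of all 605 Z genes. The 48 autosomal members were centred near 0, with a median male minus female difference of -0.018. Without adjustment 7 of the 51 members had a p under 0.05, against 12.7% of all genes. No probe set of the 83 passed either, against 0.554% of all chicken probe sets, and the lowest adjusted p among them was 0.211 (limma), in the second probe set of FSTL4.

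**Figure D1:**
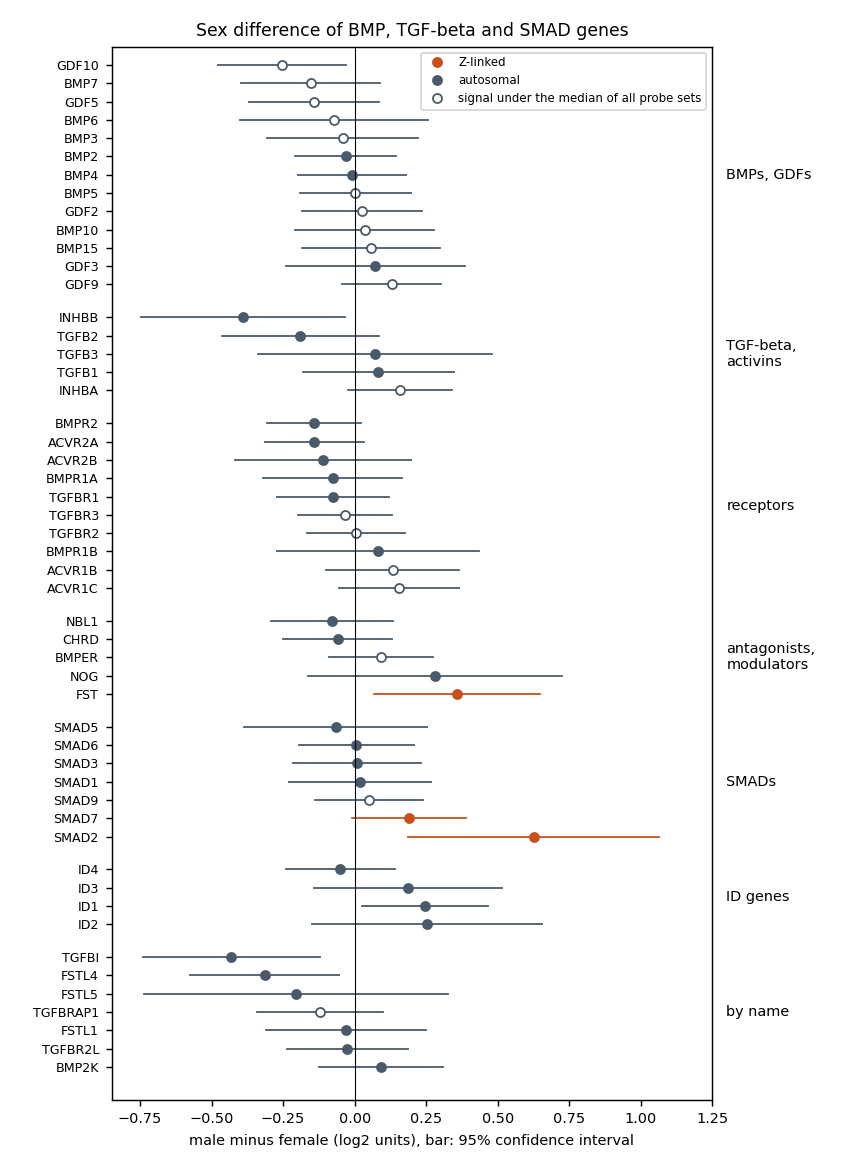
Male minus female difference in log2 units of the 51 genes, grouped by role, with 95% confidence intervals from limma (n = 3 pools per sex). Z-linked genes are in orange, and open circles mark genes whose signal lay under the median of all probe sets. SMAD2 has the highest difference (0.63) and TGFBI the lowest (-0.43), and most points lie within 0.2 of 0.

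The Z-linked members are a receptor SMAD, an inhibitory SMAD and a ligand trap. SMAD2, which carries the signal of TGF-betas and activins, had values of 8.72, 8.50 and 8.52 in female pools 1 to 3 and of 9.29, 9.56 and 8.76 in male pools 1 to 3. Its means were 8.58 ± 0.13 (SD, n = 3) and 9.20 ± 0.40, a difference of 0.63 (SE 0.19, 1.54-fold, limma adjusted p = 0.313). The 95% confidence interval of the difference, from 0.19 to 1.06, included a doubling. The groups did not overlap, but male pool 3 stood only just above the highest female pool and the other 2 male pools well above it. Without male pool 3 the difference was 0.85 and the adjusted p 0.0510 (limma). Without male pool 2 the difference was 0.45.

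FST encodes follistatin, which binds activins and some BMPs outside the cell. Its values were 5.10, 4.91 and 5.37 in the female pools and 5.44, 5.61 and 5.41 in the male pools, with means of 5.13 ± 0.23 (SD, n = 3) and 5.49 ± 0.11. The difference was 0.36 (SE 0.12, 1.28-fold, limma adjusted p = 0.378), and the gap between the groups was small, since female pool 3 nearly reached the male range. A dimmer second probe set of FST, under the median signal, gave -0.09, and the mean over both probe sets gave 0.13. The male excess of FST was thus seen in its brighter probe set only; without female pool 3 it was 0.48.

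SMAD7, an inhibitory SMAD that blocks the receptors, had values of 6.73, 6.99 and 6.81 in the female pools and of 7.03 in each of the 3 male pools. The difference was 0.19 (SE 0.09, 1.14-fold, limma adjusted p = 0.502), with a 95% confidence interval from -0.01 to 0.39 that does not reach a doubling. The highest female pool lay just under the male pools. Its dimmer probe sets gave 0.07 and 0.16. The RefSeq annotation also lists a gene SMAD7B on the W, to which no probe set is assigned in the platform annotation used here. Whether the SMAD7 probe sets read RNA of that gene in females was not tested.

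The 3 genes lay within the range of the rest of the chromosome. Among 377 Z genes with a signal at or above the median, 116 had a larger difference than SMAD2, 189 a larger one than FST and 248 a larger one than SMAD7. The median of the 3 members was 0.36, as was that of the 377 genes. An adjusted p under 0.05 was reached by 27.3% of the 377 genes and by 17.2% of all 605 Z genes. All male pools lay above all female pools in 59.4% of the 377. Per pool, the mean deviation of the 3 members from their own means, minus that of the autosomal members, was -0.20, -0.25 and -0.17 in the female pools and 0.19, 0.36 and 0.07 in the male pools. Male pool 2 was highest and male pool 3 lowest of the males, and the same held for all Z genes against all autosomal genes, with 0.14, 0.20 and 0.10 in male pools 1 to 3. The 3 members are among those Z genes.

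**Figure D2:**
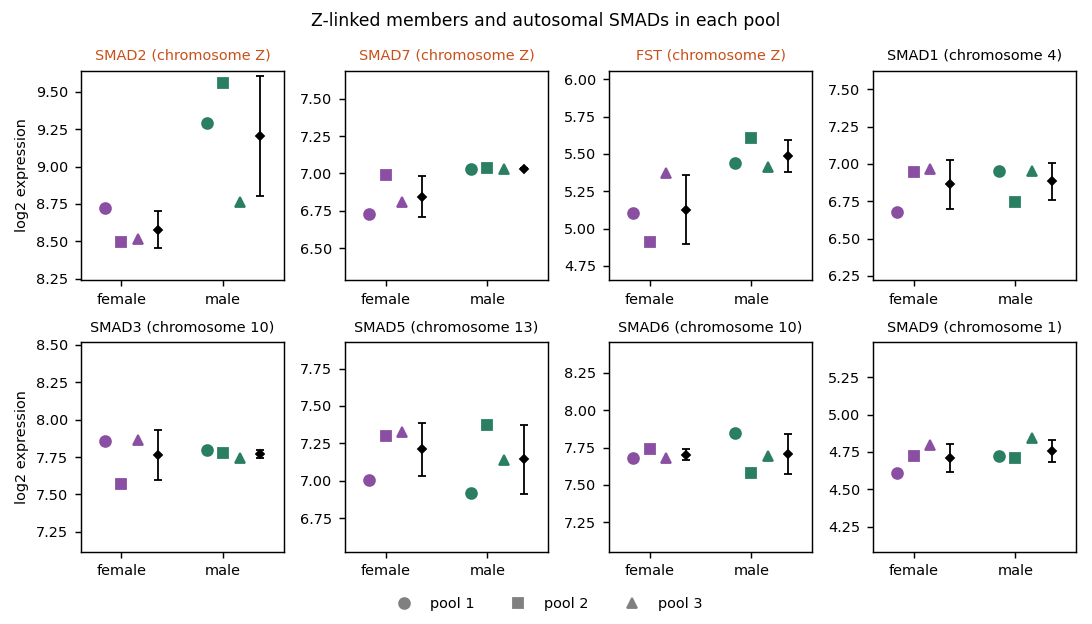
Log2 expression of the 3 Z-linked members and the 5 autosomal SMADs in each pool. The shape gives the pool number, the diamond with its bar is the mean ± SD (n = 3), and every panel spans the same number of log2 units. The male pools of SMAD2, SMAD7 and FST lie above all female pools, and in the autosomal SMADs the sexes overlap.

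The other SMADs among the members are autosomal, and none differed beyond the spread of the pools. SMAD4 is not among the 51 genes and was not read here. SMAD3 on chromosome 10, the partner of SMAD2 in the TGF-beta and activin branch, had values of 7.86, 7.57 and 7.86 in female and 7.80, 7.77 and 7.75 in male pools. The difference was 0.01, with a 95% confidence interval from -0.22 to 0.23. Of the SMADs of the BMP branch, SMAD1 gave 0.02 (-0.23 to 0.27), SMAD5 -0.07 (-0.39 to 0.25) and the dim SMAD9 0.05 (-0.14 to 0.24). SMAD6, the inhibitory SMAD of the BMP branch, gave 0.01 (-0.20 to 0.21). In all 5 genes the male and female pools overlapped. SMAD2 and SMAD3 thus sat side by side with differences of 0.63 and 0.01, and the gap between these was not tested.

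Among the ligands the BMP and GDF genes were mostly dim. Of 13 genes 7 lay under the viral 95th percentile, namely BMP5, BMP6, BMP7, BMP10, BMP15, GDF9 and GDF10, and for these an absent transcript and a weak probe set cannot be told apart. Only BMP2, BMP4 and GDF3 had a signal at or above the median. BMP2, a dorsal midline and mesenchyme ligand, gave -0.03 (95% confidence interval -0.21 to 0.15) and its pools lay between 5.70 and 5.88. BMP4 gave -0.01 (-0.20 to 0.18) with pools between 4.95 and 5.14, while its dimmer probe sets gave 0.06 and, for the dimmest, 0.26 (SE 0.09, limma adjusted p = 0.387). GDF3 gave 0.07 (-0.24 to 0.39), with pools from 7.18 to 7.58. By the brightest probe set, differences of all 13 genes ran from -0.25 to 0.13 and 12 of them were smaller than 0.2 in size. The exception, GDF10, had a signal under the viral percentile. BMP7 gave -0.15, and its other probe sets, also under the viral percentile, gave -0.27 (SE 0.07, limma adjusted p = 0.270) and 0.11. In the first of these every male pool lay below every female pool.

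The activin gene INHBB, which encodes the beta B subunit of activins and inhibins, had one of the largest autosomal differences. Its values were 6.27, 5.92 and 6.31 in the female pools and 5.85, 5.49 and 5.98 in the male pools. The means were 6.17 ± 0.21 (SD, n = 3) and 5.78 ± 0.25, a difference of -0.39 (SE 0.15, limma adjusted p = 0.437), and the groups overlapped because male pool 3 lay above female pool 2. Pool 2 was the lowest of each sex. A second probe set of INHBB at or above the median signal gave -0.02, so the difference was not seen by both. INHBA, the beta A subunit, lay under the viral percentile and gave 0.16.

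Of the TGF-beta genes, TGFB3 varied most between pools of a sex. Its values were 7.13, 7.53 and 7.55 in female and 7.84, 7.28 and 7.30 in male pools, so that female pool 1 was low and male pool 1 high, and the difference was 0.07 (SE 0.18). Without male pool 1 it was -0.11, and a second probe set gave -0.14. TGFB2 gave -0.19 (SE 0.12), with male pool 3 at 6.17 and the other 5 pools between 6.47 and 6.66. TGFB1 gave 0.08 (SE 0.11).

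The receptors differed little between the sexes. All 10 differed by less than 0.2 in size, from -0.14 to 0.16, and 4 of them (ACVR1B, ACVR1C, TGFBR2 and the co-receptor TGFBR3) lay under the viral percentile. BMPR2, the type II receptor of BMPs, had 6.07, 6.18 and 6.08 in female and 6.00, 5.95 and 5.95 in male pools. The type II activin receptor ACVR2A had 10.05, 10.16 and 10.18 in female and 10.02, 9.92 and 10.02 in male pools. Both genes gave -0.14 (SE 0.07, limma adjusted p = 0.539 and 0.565), and in both every male pool lay below every female pool, by a narrow margin. A second probe set of ACVR2A, under the viral percentile, gave 0.04 and its pools overlapped. The spread of BMPR2 within a sex was lower than that of most probe sets, at the 7.18th percentile of all 37693. Of the type I receptors, TGFBR1 gave -0.08 (95% confidence interval -0.27 to 0.12) and BMPR1A -0.08 (-0.32 to 0.17). BMPR1B gave 0.08 (-0.27 to 0.43), with 6.48 to 6.57 in the female pools but 6.26, 6.91 and 6.64 in the male pools.

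None of the extracellular antagonists passed, FST included, and in the others the male and female pools overlapped. NOG, which encodes noggin, a BMP trap, had values of 7.39, 6.93 and 7.77 in female and 7.52, 7.72 and 7.69 in male pools, a difference of 0.28 (SE 0.19, limma adjusted p = 0.662). Female pool 2 lay far under the other 5 pools, and without it the difference was 0.07, whereas without female pool 3 it was 0.48. CHRD, which encodes the BMP trap chordin, gave -0.06 (95% confidence interval -0.25 to 0.13) and NBL1, a secreted antagonist of the DAN family, gave -0.08 (-0.29 to 0.13). BMPER, a modulator that binds BMPs, lay under the viral percentile.

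The ID genes encode helix-loop-helix proteins that hold back neuronal differentiation factors, and they are common targets of BMP signalling. ID1 had values of 9.18, 9.14 and 8.97 in female and 9.33, 9.23 and 9.47 in male pools. The lowest male pool lay above the highest female pool, the difference was 0.25 (SE 0.09, 1.19-fold), and the limma adjusted p was 0.431. Without female pool 3, the lowest pool, the difference of ID1 was 0.18. ID2 had 11.56, 11.39 and 11.47 in female and 11.99, 11.30 and 11.90 in male pools. Male pools 1 and 3 of ID2 lay above all female pools and male pool 2 below them. The difference of 0.25 (SE 0.17) became 0.47 without male pool 2 (limma adjusted p = 0.144). With each pool left out in turn it ran from 0.12 to 0.47. Over the 12 alternatives the adjusted p of ID2 ran from 0.144 to 0.867 (limma). The 3 other probe sets of ID2, all at or above the median signal, gave 0.32, 0.11 and -0.33, so they disagreed in sign. ID3 gave 0.19 (SE 0.14) and ID4 -0.05 (SE 0.08), and no ID gene passed. Red blood cell markers, 6 of 7 at or above the median signal, had mean levels of 10.05 to 10.58 in female and 10.37 to 10.80 in male pools. Of the 7, 6 gave differences above 0 and 1 below, with a median of 0.22. The largest was that of HBZ, 0.94 (SE 0.25, limma adjusted p = 0.251), with every male pool above every female pool. Among the 7 is ALAS1, which was matched through a synonym to the listed ALAS2. The 9 neural progenitor markers had mean levels of 9.25 to 9.30 in female and 9.12 to 9.16 in male pools, with no overlap, and 8 of the 9 gave differences below 0. Neuron markers had mean levels of 9.49 to 9.79 in female and 9.32 to 9.57 in male pools, and 8 of 10 gave differences below 0. Of all 13008 genes 7091 gave differences above 0 and 5917 below. Mean levels of muscle markers did not overlap either, at 4.25 to 4.33 in female and 4.36 to 4.43 in male pools. These markers were dim, with 3 of 7 under the viral percentile and 1 at or above the median. The part of such shifts in the differences of the ID genes was not tested.

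**Figure D3:**
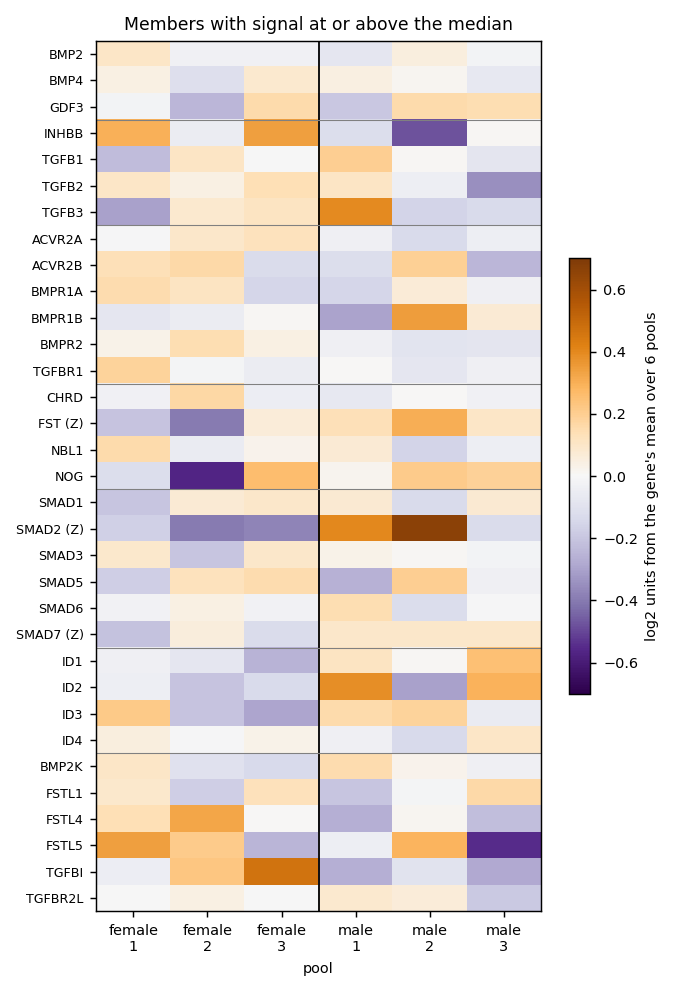
Deviation of each pool from the gene's mean over the 6 pools, in log2 units, for the 33 members with a signal at or above the median. Rows are grouped by role in the order ligands, receptors, antagonists, SMADs, ID genes and members by name, and the black line parts female from male pools. SMAD2 is high in male pools 1 and 2, NOG is low in female pool 2, and FSTL5 is low in male pool 3.

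Of the 7 members by name, 6 gave differences below 0. TGFBI, a matrix protein induced by TGF-beta, had values of 6.18, 6.46 and 6.70 in female and 5.96, 6.13 and 5.95 in male pools. Its means were 6.45 ± 0.26 (SD, n = 3) and 6.01 ± 0.10, a difference of -0.43 (SE 0.13, limma adjusted p = 0.325), with every male pool below every female pool. It was -0.31 without female pool 3, which was the highest. The 13 mesenchyme and meninges markers had mean levels of 4.48 to 4.50 in female and 4.47 to 4.56 in male pools, and their ranges overlapped. Of these markers 6 lay under the viral percentile and 5 at or above the median. The part of such tissue in the difference of TGFBI was not tested.

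FSTL4, a follistatin-like gene, had 7.20, 7.38 and 7.06 in female and 6.79, 7.07 and 6.84 in male pools, a difference of -0.31 (SE 0.11, limma adjusted p = 0.387). A second bright probe set of FSTL4 gave -0.35 (SE 0.08, limma adjusted p = 0.211) with no overlap of the sexes, and 2 dimmer ones gave values within 0.02 of 0. FSTL5, a relative, had 7.97, 7.84 and 7.38 in female and 7.59, 7.92 and 7.08 in male pools. Pool 3 was the lowest of each sex, and the difference of -0.20 (SE 0.23) became 0.02 with male pool 3 omitted, -0.38 with female pool 3 omitted and -0.40 with male pool 2 omitted. Neuron markers had mean levels of 9.67, 9.79 and 9.49 in female and 9.45, 9.57 and 9.32 in male pools. They were lowest in pool 3 of each sex, but in females highest in pool 2, where FSTL5 was highest in pool 1. Any link between the markers and FSTL5 was not tested. FSTL1 gave -0.03, BMP2K 0.09, TGFBR2L -0.03 and TGFBRAP1 -0.12.

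Some members had a high spread between pools of a sex. The residual SD of FSTL5 was 0.37, at the 97.3rd percentile of all chicken probe sets, that of NOG and SMAD2 0.30 (95.1 and 94.9), that of TGFB3 0.28 (93.7) and that of ID2 0.27 (93.3). In NOG the spread lay in the female pools (SD 0.42, against 0.10 in males), and in SMAD2 and ID2 in the male pools (SD 0.40 and 0.37, against 0.13 and 0.08 in females). FSTL5 and TGFB3 were spread in both sexes. Counting pools that lay at least 0.5 from the mean of the other 2 pools of their sex, 7 genes had such a pool: NOG in female pool 2, BMP6 and FSTL5 in female pool 3, TGFB3 and BMPR1B in male pool 1, ID2 in male pool 2, and SMAD2 and FSTL5 in male pool 3. No pool was far off in more than 2 of these genes.

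Taking all 51 members, the male and female pools did not overlap in 9, against 19.1% of all 13008 genes. The male pools were the higher ones in 6 of the 9 (SMAD2, SMAD7, FST, ID1, and the dim INHBA and GDF9), beside 12.0% of all genes, and the lower ones in 3 (TGFBI, ACVR2A and BMPR2), beside 7.06%. Of the 48 autosomal members 6 did not overlap, against 17.8% of all autosomal genes. The autosomal members had 23 differences above 0 and 25 below, with quartiles of -0.09 and 0.07, beside a median of 0.01 and quartiles of -0.09 and 0.10 over 12207 autosomal genes. At an unadjusted p under 0.05 stood 5 of the 48, beside 11.1% of autosomal genes. These counts lie near or under those of the background.

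Where a gene had several probe sets, their differences often had opposite signs. The share of such genes over the whole array was not counted. Some of these genes had a difference near 0 in the brightest probe set, such as BMP4 (-0.01) and TGFBR2L (-0.03). Of 20 such genes 14 had a probe set whose difference was opposite in sign to the brightest, and in 5 of these (FSTL1, ID2, NBL1, TGFB3 and TGFBR2L) an opposing probe set had a signal at or above the median.

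**Figure D4:**
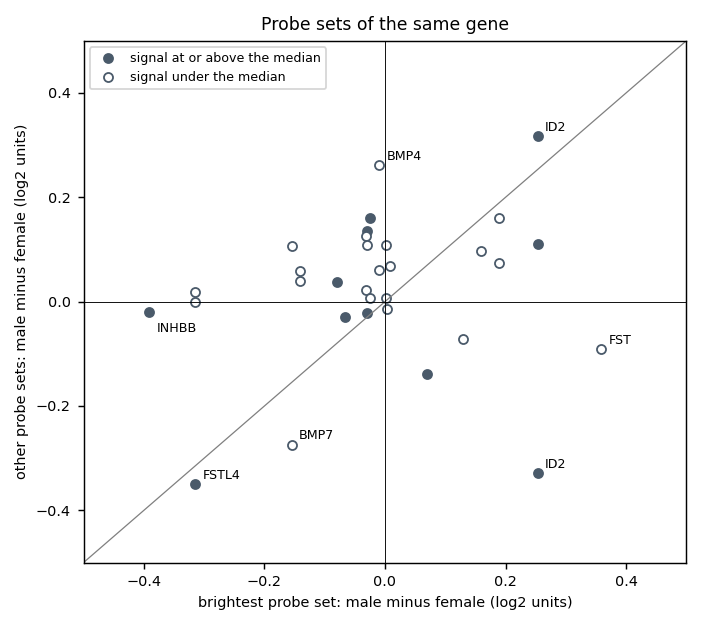
Male minus female difference in log2 units of the other probe sets of 20 genes against that of the brightest probe set, 1 point per other probe set. Open circles have a signal under the median and the grey line marks equality. FSTL4 has a probe set near the line at -0.35, ID2 has probe sets at 0.32 and -0.33, and FST and INHBB have large differences in the brightest probe set only.

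Genes of the pathway outside the name rule were read from lists of pathway genes, and of 82 on the array none passed (limma, adjusted p from 0.0770 to 0.999), with 13 at an unadjusted p under 0.05 beside 12.7% of all genes. Of 28 further ligands and modulators, among them secreted antagonists, co-receptors and ligand-processing proteases, 16 differences were above 0 and 12 below. CHRDL1, a secreted BMP antagonist related to chordin, gave -0.40 (SE 0.10, limma adjusted p = 0.205), with 8.64, 8.64 and 8.80 in female and 8.24, 8.18 and 8.46 in male pools, and the sclerostin gene SOST gave 0.26 (SE 0.09). Of 35 partners and inhibitors inside the cell 10 lay above 0 and 25 below, with a median of -0.09 beside 0.02 for all genes. NEDD4L, a ubiquitin ligase of the SMAD pathway, gave 0.43 (SE 0.08, limma adjusted p = 0.0770), although the annotation places it on the W. Its values were 8.38, 8.47 and 8.52 in the female pools and 8.85, 8.85 and 8.96 in the male pools, which have no W. In the male pools the probe set thus read RNA from outside the W. Which copies it reads in the female pools was not tested. The SMAD corepressor TGIF1 gave 0.18 (SE 0.07). Of 19 further target genes 10 lay above 0 and 9 below, and GATA3 and DLX5 gave -0.44 (SE 0.11) and -0.45 (SE 0.12). The 8 Z-linked genes of these lists were all above 0, from 0.02 for GDNF to 0.34 for RGMB, a BMP co-receptor, with a median of 0.11. None of the 8 had an unadjusted p under 0.05 (limma). CER1, CFC1 and CDKN2B lay under the viral percentile and GDNF under the median signal. Of all 605 Z genes 483 gave differences above 0, with a median of 0.18.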

How the data were processed

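Total RNA of pooled brains was copied from oligo(dT) primers, labelled with biotin and put on Affymetrix arrays, per the labels' protocols. The authors deposited log2 values for each probe set on each array. Their notes on processing name RMA and the affy package, with no version, per the submitters' processing notes. RMA equalises the arrays and gives no detection call, and values between 2.28 and 14.1 show the log2 scale. Of 38535 probe sets, 153 controls and 689 probe sets for other organisms were left out, and 37693 were fitted with no filter in limma 3.58.1 (R 4.3.3; lmFit, eBayes, sex as the only term). SE is limma's moderated standard error. The number of arrays limits the precision, and p-values measure the spread between pools, not embryos. The procedure was tested on simulated data with known changes. It recovered 12 of 50 changes of 0.5 log2 units and 39 of 50 changes of 1, so that simulated differences of 0.5 were mostly missed. It also called 11 unchanged probe sets. The changed probe sets were drawn from all chicken probe sets with independent noise, so these shares need not hold for the members.

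All 51 members matched RefSeq by gene ID. Coordinates are left out because the build behind the array is unknown here. Members and lists were chosen with earlier results of these data known. Of 194 list entries 164 were matched to the array, 9 of them through a synonym, which can stand for a related gene. Every member could be named, with values per pool for Z-linked members, the 5 largest differences and the 5 largest residual SDs, and from each pathway list the 2 genes of smallest p. Values of other members and RGMB and GDNF were added after they were seen. Alternatives were robust eBayes with a trend, array weights, a replicate block, a filter on dim probe sets, a further quantile normalization, the mean over probe sets, and each pool left out.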

Additional observations from a re-analysis of the deposited data

How the results depend on the processing

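No signalling gene passed under any of the 12 alternatives. The lowest adjusted p was 0.0510, for SMAD2 without male pool 3 (limma, Benjamini-Hochberg). Of 594 values of single genes under these alternatives 50, in 24 genes, had another sign than the value reported, none of them called. The count of all chicken probe sets called, 209, was 113 to 161 when a pool was left out. It was lowest, 113, with female pool 2 omitted, 129 with female pool 3 omitted and 130 with male pool 1 omitted. With the mean over the probe sets of a gene, the median difference of Z-linked members was 0.14 instead of 0.36, since dimmer probe sets enter, and that of autosomal members was 0.013 instead of -0.018. The other alternatives left both medians within the spread between pools. The count at an unadjusted p under 0.05 was 4 to 6 with a pool left out, against 7. With the replicate block 245 chicken probe sets and 0 signalling genes passed, and the lowest adjusted p of a member was 0.123 (INHBB). The main fit did not pair the pools, and not every same-numbered pair of pools correlated above 0.1. Deviations of same-numbered pools correlated at 0.01, 0.15 and 0.32 over all chicken probe sets. Female pools 2 and 3 correlated best with the male pool of their own number and female pool 1 with male pool 2. Whether same-numbered pools shared an effect was not tested, and 3 pools per sex are too few to decide it. Dim signal limits 13 members, which lay under the viral percentile.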
